A study of Homo sapiens with 4 samples.

Results

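Long single-exon ac4C peaks were the stretches of RNA listed as a single exonic block of 400 nt or more in either of the 2 deposited peak lists. They numbered 434 of 6403 peaks in control cells (6.78%, 95% Wilson interval 6.19 to 7.42) and 361 of 6417 in NAT10-depleted cells (5.63%, 5.09 to 6.22), so 795 of 12820 in all. The members were chosen by their measured length and number of blocks, and those lengths are given as a description with no test. They were compared with the 4386 and 4522 single-exon peaks under 400 nt of the same lists, called short peaks here.

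The cells were FaDu, an established human cancer line of squamous type that came from the hypopharynx. One line carried a non-targeting short hairpin RNA (shNC) and the other a hairpin against NAT10 (shNAT10), both stably expressed from a lentivirus and selected with puromycin. Each line gave 1 library of immunoprecipitated (IP) RNA and 1 input library, 4 libraries in total with no replicates, and a list of peaks of IP over input for each line. No test between the conditions is therefore possible, and each interval below reflects how many peaks were counted, with nothing of the spread between cultures or libraries in it. The depth of the libraries is unknown.

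N4-acetylcytidine (ac4C) is an acetyl mark on cytidine, written by the acetyltransferase NAT10 on ribosomal RNA, on transfer RNA with its partner THUMPD1, and, as reported, on messenger RNA. In acRIP-seq an antibody against ac4C pulls down RNA that has been broken into short pieces, so a peak is the stretch over which pulled-down pieces exceed the input. The question behind the experiment was which RNAs carry ac4C in these carcinoma cells and how that changes when NAT10 is depleted. NAT10 and THUMPD1 had no long peak in either list, and each list held 1 short single-exon peak on these 2 genes. GLMP, the lysosomal membrane protein gene on which the study centred, likewise had no long peak.

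Reference letters were at hand for 9 members of each list, where a RefSeq window of GRCh38.p14 (300 bases at a gene's start, or a microRNA hairpin) ran through the peak. The sequences below are shown because the study linked ac4C to a cytidine-rich motif, and the deposited annotation lists sites of the form CXXCXXCXXCXX, a cytidine followed by a pair of any bases (X), 4 times in a row. Each is 30 bases of a member, 5′ to 3′ on the strand of the peak, and capitals mark the bases that belong to 1 or more such sites.
ID1, shNAT10 member, chr20:31605398-31605427, plus strand: ccagtggCAGCACCGCCACCGCCGCCGCGG
SMPD4, shNC member, chr2:130182277-130182306, minus strand: aggccctacgccCTGCGCCGCCATCCCCGC
ADIRF-AS1, shNC member, chr10:86970265-86970294, minus strand: gggttgccCGCCTCCCTCCAGCCCCACCAG
B2M, member in both lists, chr15:44717844-44717873, plus strand: agaattctcttatcCAACATCAACATCTTg
TSPAN31, shNAT10 member, chr12:57748651-57748680, plus strand: agaaaacagacttctgccCACCCACAACAA

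The ID1 stretch held 7 overlapping sites, the SMPD4 and ADIRF-AS1 stretches 3 each, the B2M stretch 2 and the TSPAN31 stretch 1. Over all the letters at hand, the ID1 peak had 8 sites in 75 bases, 40% of them C. Read on the gene's own strand, as RNA has only 1, the last 75 bases held a site in 37.4% of all RefSeq promoter windows. The SMPD4 peak of the shNC list had 5 sites in 72 bases with 54.2% C, and the ADIRF-AS1 peak 7 in 212 bases with 30.2% C. Not every member was rich in C. The 300 bases at hand in the shNAT10 peak of NQO1, a quinone reductase gene, had 15.7% C and no site. They lie in the promoter window of another gene, NQO1-AS1. Of promoter windows of that length, 74.9% hold a site on the gene's strand. This share and the 37.4% come from gene starts, so neither is an expected rate for the RNA of a peak. The SMPD4, ADIRF-AS1 and TSPAN31 members overlapped opposite-strand peaks of the same list, on MZT2B, ADIRF and CDK4, at 14.6-fold against 9.85-fold, 94.6-fold against 86.1-fold and 62.7-fold against 70.1-fold. Which strand gave the reads at these 3 places is uncertain, and so is the strand on which their sites should be read. A match or its absence in these short windows is a description only, and most of each peak lies outside them.

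Most single-exon peaks of both lists were under 250 nt, and the long ones lay in the upper tail of the lengths. Members had a median length of 481 nt (shNC) and 480 nt (shNAT10), against 181 nt for the short peaks of either list. The longest, 1559 nt and 1409 nt, were on the same RNA. Lengths moved in steps, with 90.6% of the shNC and 90.03% of the shNAT10 single-exon peaks within 1 nt of a multiple of 30 nt, and 65.7% and 63.7% of the members. The steps left a gap around the limit. The shortest members of shNC were peaks of CXCL1 (413 nt, a neutrophil-attracting chemokine), COA3 (414 nt) and APRT (414 nt), and just under the limit stood PKM, CAPNS1 and TRAPPC5 at 391 nt each. In shNAT10 the shortest were an unnamed gene at 412 nt, ERI3 at 416 nt and the heat shock gene HSPA1B at 416 nt, with PKM, SERF2 and CAPNS1 at 391 nt below it.

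**Figure D1:**
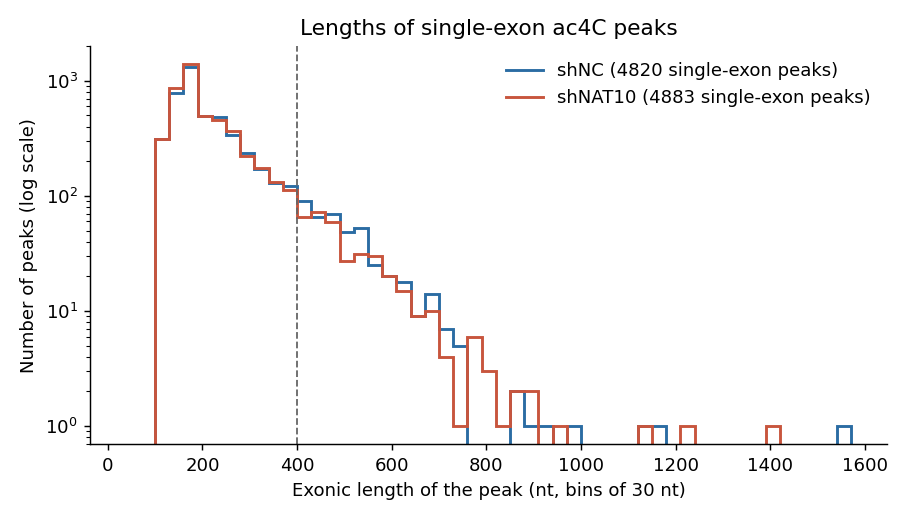
Number of single-exon peaks by exonic length, in bins of 30 nt on a logarithmic count axis, for the shNC (blue) and shNAT10 (red) lists, with the 400 nt limit dashed. The lines run close together over the whole range, with more shNC peaks in all between 400 and 600 nt and the longest peaks at 1559 nt (shNC) and 1409 nt (shNAT10).

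The shNC list held 1.20 times as many members as the shNAT10 list at 400 nt, a difference in share of 1.15 percentage points (Newcombe interval 0.317 to 1.99). That excess depended on the limit. The ratio of shNC to shNAT10 counts was 1.04 from 200 nt, 1.099 from 300 nt and 1.26 from 500 nt. It was 1.03 from 600 nt (65 against 63 peaks), and from 700 nt the order turned, with 20 against 23 peaks, a ratio of 0.870.

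Long peaks were strong peaks. Fold enrichment, the linear ratio of IP over input within 1 list, had a median of 30.5 for the shNC members and 11.2 for the shNC short peaks, and of 28.7 and 11.8 in shNAT10. The median log10 p-value was -82.3 against -7.17 in shNC and -78.1 against -6.99 in shNAT10. No member of either list had an FDR above 0.05, whereas 10.4% and 9.51% of the short peaks did. Peak length and p-value come from the same reads, so these values describe the members and are no independent support for them.

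Among the long single-exon peaks, the highest enrichment in both lists belonged to RPP25, a protein subunit of the RNA-processing ribonucleases P and MRP. Its peak was enriched 297-fold over 450 nt in shNC (chr15:74955312-74955761, minus strand) and 318-fold over 479 nt in shNAT10 (chr15:74955402-74955880). The other shNC leaders with a name were ID1, an inhibitor of basic helix-loop-helix transcription factors, at 263-fold, POMGNT1, an enzyme of O-mannose glycan synthesis, at 253-fold, and BRK1, a subunit of the actin-regulating WAVE complex, at 219-fold. Those of shNAT10 were PROSER2 at 305-fold, PSAP, the precursor of the saposins, at 230-fold, the growth factor gene IGF2 at 212-fold and RBPJ, the DNA-binding factor of Notch signalling, at 202-fold. Each of these peaks met a peak of the other list. The counterparts were 33.8-fold for POMGNT1, 53.0-fold for BRK1, 10.5-fold for PROSER2, 55.3-fold for PSAP, 51.8-fold for IGF2 and 7.42-fold for RBPJ. Being picked as the highest of 1 list sets such a gap in part, and the scaling between the lists is not stated, so the values stand side by side without a comparison.

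The same place was called in the other list for nearly all long peaks. Of the 434 shNC members, 397 overlapped a shNAT10 peak by 1 bp or more of exon on the same strand (91.5%, 88.5 to 93.8), where 51.7% of all shNC peaks did. Of the 361 shNAT10 members, 326 overlapped a shNC peak (90.3%, 86.8 to 92.9), against 51.5% of all shNAT10 peaks. Among the short peaks the shares were 44.3% and 45.1%. Long minus short was thus 47.2 percentage points in shNC (43.9 to 49.9) and 45.2 in shNAT10 (41.4 to 48.2). It was 28.2 and 27.4 points when any peak of the same gene identifier counted as shared, and 30.02 and 25.6 points among peaks with an FDR of at most 1e-10. Of the peaks of several exonic blocks that add up to 400 nt or more, 96.9% in shNC and 94.8% in shNAT10 were shared.

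There was no jump at 400 nt. In shNC the shared share went from 23.8% under 150 nt and 26.7% at 150 to 199 nt to 55.8% at 200 to 249 nt, 71.9% at 250 to 299 nt and 85.1% at 350 to 399 nt. Beyond the limit it was 87.0% at 400 to 449 nt, 93.7% at 500 to 599 nt and 100% of the 20 peaks of 700 nt or more. In shNAT10 it was 26.4% under 150 nt, 83.3% at 350 to 399 nt, 81.3% at 400 to 449 nt and 100% of the 23 peaks of 700 nt or more.

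**Figure D2:**
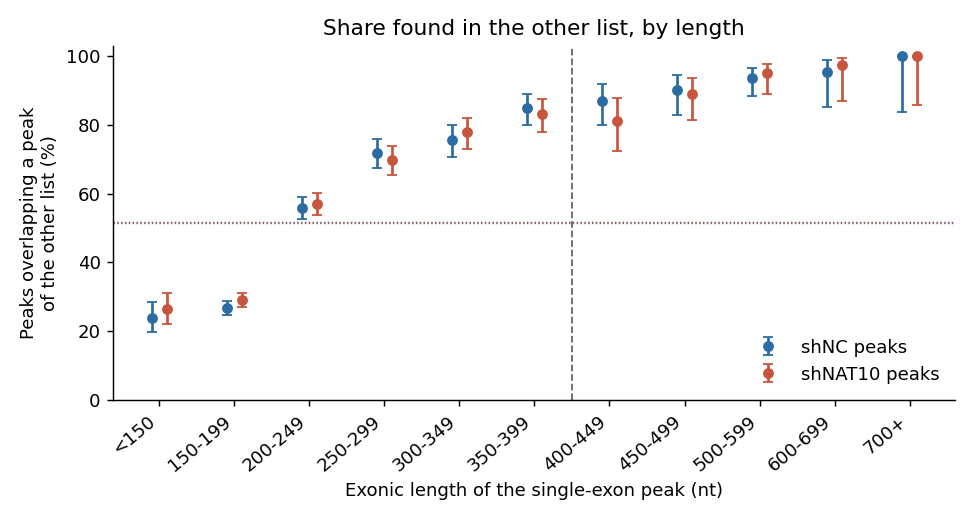
Share of single-exon peaks that overlap a peak of the other list (percent, vertical axis) by exonic length (nt), with 95% Wilson intervals, for shNC (blue) and shNAT10 (red). Dotted lines mark the 51.7% and 51.5% of all peaks, the dashed line the 400 nt limit, and the points go from 23.8% and 26.4% under 150 nt to 100% from 700 nt, with a dip to 81.3% in shNAT10 at 400 to 449 nt.

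Long and short peaks were also compared within quartiles of p-value, which narrow the range of peak strength but do not make it equal. When the single-exon peaks of each list were split into quartiles of p-value, 356 of the 434 shNC members and 300 of the 361 shNAT10 members fell in the quartile with the smallest p-values. Within it, 95.5% of the long and 83.3% of the short shNC peaks were shared, 12.2 points apart (8.66 to 15.4), and in shNAT10 94.0% and 84.3%, 9.74 points apart (5.79 to 13.1). In the second quartile the differences were 20.1 points (8.89 to 28.99) over 74 members and 17.2 points (4.19 to 27.7) over 58. Long peaks were still the more enriched ones inside these quartiles. In the first, median fold enrichment was 34.5 for long and 23.5 for short shNC peaks, and 31.7 and 23.7 in shNAT10. In the second it was 21.5 and 15 in shNC, and 20.25 and 14.9 in shNAT10. The third quartile held 4 and 3 members and the weakest none, so no more can be read from them. With the midpoint of the peak required to lie inside a peak of the other list, long minus short was 42.7 points in shNC and 39.97 in shNAT10. The part of peak strength and of length itself in the difference was not tested.

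**Figure D3:**
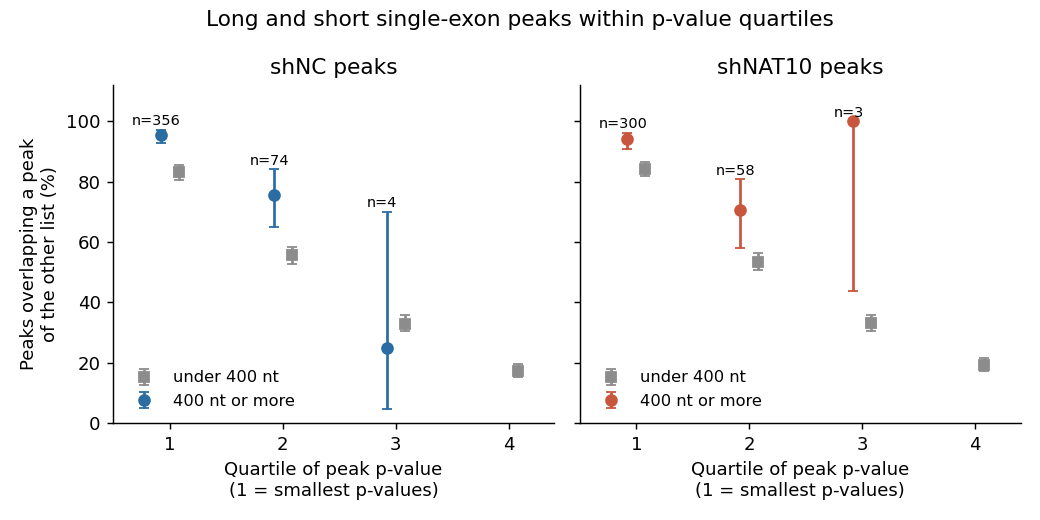
Share of long (coloured circles) and short (grey squares) single-exon peaks that overlap a peak of the other list, in percent with 95% Wilson intervals, within quartiles of the p-value in each list. The n above each circle is the number of long peaks, and long peaks sit above short ones by 12.2 and 20.1 points in the first and second quartiles of shNC and by 9.74 and 17.2 points in shNAT10. In quartile 3 the 4 and 3 long peaks fall on opposite sides of the short ones, with wide intervals.

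Being called again did not mean being long again. A long shNAT10 peak lay at the place of 181 shNC members (41.7%, 37.2 to 46.4), and a long shNC peak at that of 180 shNAT10 members (49.9%, 44.7 to 55.0). Among short peaks 3.53% in shNC and 5.57% in shNAT10 met a long peak of the other list, and among peaks of several blocks 1.71% and 1.89%. A further 203 shNC and 132 shNAT10 members met only short single-exon peaks, or these with a peak of several blocks, and 13 and 14 met peaks of several blocks alone. Where an shNC member met no long single-exon peak but a short one, its best-matching shNAT10 peak covered a median of 53.6% of it, and in the other direction the median was 55.0%. The peak of H1F0, a linker histone gene, was 1128 nt in shNC (chr22:37806309-37807436) at 74.9-fold, and its shNAT10 counterparts were 327 nt at 35.8-fold and 238 nt at 11.8-fold. CHD3, a chromatin remodeller of the NuRD complex, had 929 nt in shNC (chr17:7911772-7912700) at 70.4-fold against 300 nt at 13.3-fold. In the other direction PAX8, a paired-box transcription factor gene, had 1229 nt in shNAT10 (chr2:113217375-113218603, minus strand) against 271 nt in shNC, and RHOA, a small GTPase that governs actin, 861 nt (chr3:49359175-49360035, minus strand) against 386 nt. ADGRL1, an adhesion receptor gene, had 841 nt in shNAT10 with shNC counterparts of 241 nt and 181 nt.

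**Figure D4:**
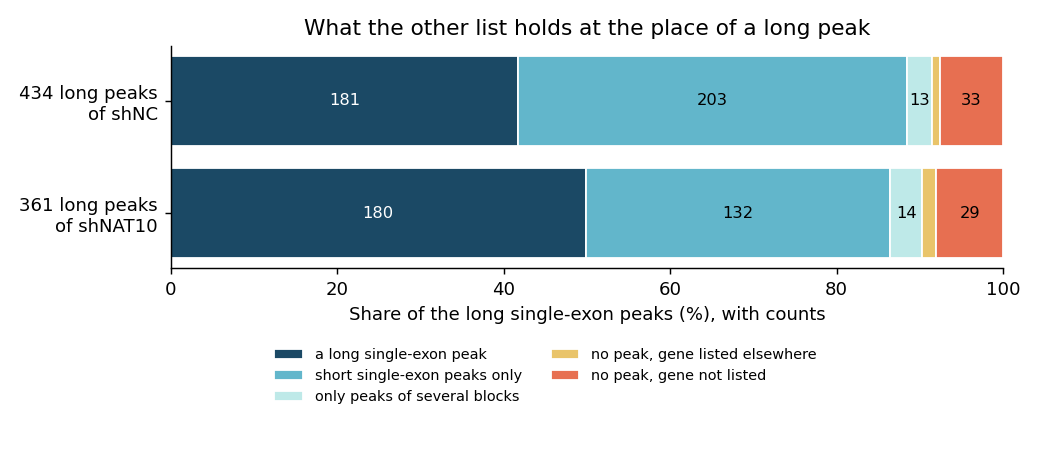
Long single-exon peaks of each list by what the other list holds at their place, as shares of the list's long peaks (percent) with counts in the bars. Of 434 shNC peaks, 181 met a long single-exon peak, 203 short ones only and 37 no peak, and of 361 shNAT10 peaks 180, 132 and 35.

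Some long peaks met 2 or more separate peaks of the same gene in the other list. This held for 46 shNC members (10.6%) and 27 shNAT10 members (7.48%), a difference of 3.12 points whose interval ran from -0.964 to 7.09. Of the short peaks 0.479% and 0.708% did, but a shorter peak has less room to meet 2 pieces, so length itself in part sets this contrast. The gap between the pieces had a median of 59 nt in both directions and was never under 58 nt. SLC39A7, a zinc transporter gene, had a peak of 749 nt in shNC (chr6:33203631-33204379, 77.8-fold) where shNAT10 listed peaks of 120 nt and 240 nt. TK1, thymidine kinase, had 739 nt in shNC (chr17:78174134-78174872, 47.0-fold) against 326 nt and 237 nt. Conversely HMGN1, a nucleosome-binding protein gene, had 687 nt in shNAT10 (chr21:39342345-39343031, 74.4-fold) where shNC listed 418 nt and 180 nt. CD24, a cell surface glycoprotein gene, had 507 nt in shNAT10 at 65.9-fold against 179 nt and 269 nt. These 4 genes were picked after their values were seen.

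Where both lists held a long peak on the same gene, the peaks nearly coincided, and each list had the longer one about as often. There were 181 such pairs on 177 genes, and their median lengths were 536 nt on the shNC side and 538 nt on the other. The shNC peak was longer in 72 pairs, the shNAT10 peak in 78, and the lengths were equal in 31. The median difference, sign ignored, was 30 nt, a single step of the length grid, and 138 pairs differed by 100 nt or less. The 3′ end was the same base in 84 pairs and the 5′ end in 49, and both ends were identical in 21. The shared stretch covered a median of 94.7% of either peak.

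**Figure D5:**
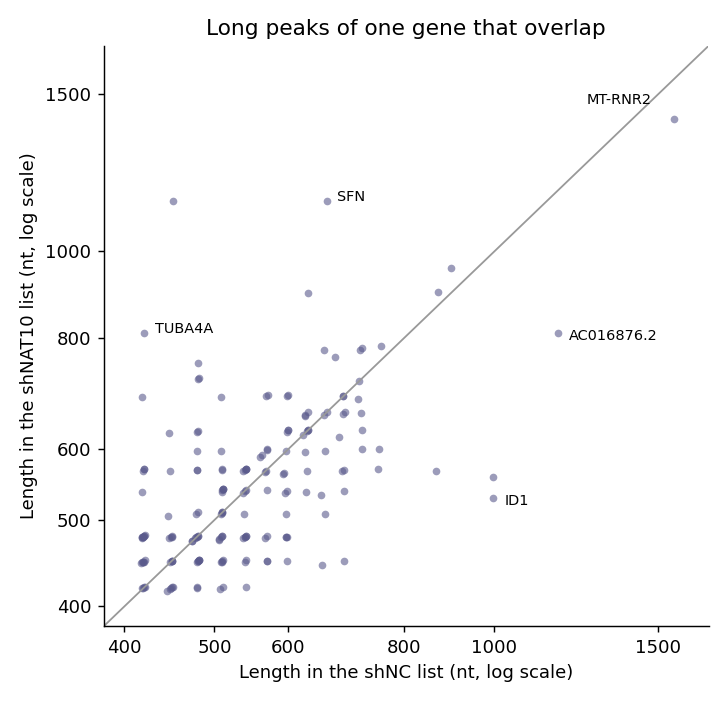
Length of overlapping long single-exon peaks of one gene in shNC (horizontal axis) and shNAT10 (vertical axis), in nt on logarithmic axes, with 1 point for each of 181 pairs and the line of equal length. Points lie on both sides of the line, 72 below and 78 above, and the labelled genes are the longest pair and those with the largest differences.

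Of the largest differences between paired peaks, those of ID1, AC016876.2 and SFN set 1 peak against a pair of separate ones of the same gene. ID1 had 1 peak of 998 nt in shNC (chr20:31605518-31606515) and, in shNAT10, peaks of 558 nt (chr20:31605371-31605928, 28.3-fold) and 529 nt (chr20:31605987-31606515, 106-fold). The ID1 bases printed above lie in the part of the 558 nt peak that is upstream of the shNC peak. AC016876.2, a noncoding transcript, had 1170 nt in shNC (chr17:7577803-7578972) against 810 nt at 33.7-fold and 181 nt at 1.87-fold in shNAT10. That shNC peak overlapped 5 same-strand shNAT10 peaks in all. SFN, which encodes 14-3-3 sigma, an epithelial checkpoint protein, turned the other way, with 1 peak of 1140 nt in shNAT10 (chr1:26863288-26864427, 27.9-fold) where shNC listed 660 nt at 9.59-fold and 451 nt at 37.0-fold. TUBA4A, an alpha-tubulin gene, had 420 nt in shNC and 810 nt in shNAT10 (chr2:219250311-219251120, minus strand), with the same 3′ end. Among the longest peaks of each list, LITAF, a lysosomal and endosomal membrane protein gene, was long in both, at 899 nt in shNC and 959 nt in shNAT10. PABPN1, the nuclear poly(A)-binding protein gene, had 866 nt in shNC against separate peaks of the same gene of 567 nt at 21.5-fold and 180 nt at 82-fold. The shNC peak of PABPN1 overlapped 3 shNAT10 peaks in all. SDF4, which encodes a Golgi calcium-binding protein, had 751 nt against 601 nt. The 864 nt peak of CTSD, the lysosomal protease cathepsin D, in shNAT10 met a shNC peak of several blocks and 894 nt.

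Only 37 shNC (8.53%) and 35 shNAT10 members (9.70%) had no peak of the other list at their place, where 51.7% and 51.5% of all peaks had one. For 33 and 29 of these members the other list held no peak of that gene identifier at all. The like share among unshared short peaks is not given here. Both the 37 and the 33 include LDOC1 as 2 entries over nearly the same bases. The unshared members were weaker than the shared members by p-value, with a median log10 p of -22.8 against -99.6 in shNC and -24.5 against -102 in shNAT10. Their medians of fold enrichment were 24.9 against 31.5 and 32.5 against 28.7. None overlapped an opposite-strand peak of the other list, which was rare among unshared short peaks too (12 of 2445 in shNC and 13 of 2483 in shNAT10). The examples that follow are among the most enriched and the longest of them, a choice added after the values were seen. In shNC, MCM2, a subunit of the replicative helicase, had 539 nt at 92.5-fold (chr3:127621838-127622376). CLUH, which encodes a protein that binds mRNAs for mitochondrial proteins, had 571 nt at 79.6-fold (chr17:2689416-2689986, minus strand). CDCP1, a transmembrane glycoprotein gene, had 631 nt at 57.3-fold, and SEC11A, a catalytic subunit of the signal peptidase, 569 nt at 9.32-fold. POR, the cytochrome P450 reductase gene, had 480 nt at 80.8-fold and was listed elsewhere along the gene in shNAT10. In shNAT10, BASP1, a membrane-attached signalling protein gene, had 450 nt at 136-fold (chr5:17276364-17276813). TRA2B, a splicing regulator, had 600 nt at 68.4-fold (chr3:185916804-185917403, minus strand), TXN2, mitochondrial thioredoxin, 595 nt at 17.7-fold, ZBTB48, a telomere-binding zinc finger protein gene, 478 nt at 73.1-fold, and DVL1, a transducer of Wnt signals, 537 nt at 6.59-fold. With 1 library of each kind per condition, whether such places lay just under the calling threshold of the other list was not tested.

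Long peaks sat close to the 3′ ends of their genes. Of the members placed within a RefSeq gene of the same name, 199 of 350 in shNC (56.9%) and 148 of 289 in shNAT10 (51.2%) ended within 100 nt of the gene's 3′ end, against 25.1% and 24.7% of the short peaks. The differences were 31.7 points (26.3 to 37.0) and 26.5 points (20.6 to 32.4). A longer peak reaches further, so midpoints were compared as well: 78.0% of the shNC and 72.3% of the shNAT10 members had their midpoint within 1000 nt of the 3′ end, against 59.3% and 60.2% of the short peaks, 18.7 points (13.8 to 23.04) and 12.1 points (6.42 to 17.2) apart. Single exons of 400 nt or more are commonest at the 3′ end of human genes, where the terminal exon holds most of the 3′-UTR, and whether exon length sets this placement was not tested. The deposited annotation gives a region class only for peaks in the authors' table of differences, which covered 210 shNC and 183 shNAT10 members, a subset picked for differing between the conditions. Of these, 64.8% and 60.1% were classed as 3′-UTR, 7.62% and 10.4% as coding sequence and 27.1% and 28.96% as other exon. The 3′-UTR share was 68.6% and 67.3% among annotated short peaks, and the differences of -3.81 points (-10.95 to 2.89) and -7.19 points (-14.9 to 0.162) had intervals that included 0.

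In the same annotated subset, 168 of 210 shNC members (80.0%) and 146 of 183 shNAT10 members (79.8%) held a listed CXXCXXCXXCXX site, against 53.6% and 53.4% of the short peaks. Per length the gap was narrower. Members had 0.587 and 0.589 sites per 100 nt and short peaks 0.497 and 0.479.

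Gene families were read from symbols, which were at hand for 381 shNC and 317 shNAT10 members. RNA encoded by the mitochondrial genome gave 8 of the 381 named members in shNC and 7 of the 317 in shNAT10, against 7 of 3629 and 10 of 3765 named short peaks. These named mitochondrial members were longer and less enriched than the members at large, with a median length of 612 nt and a median fold of 9.82 in shNC and 623 nt and 11.2 in shNAT10. The mitochondrial genome held 9 and 8 members in all. The additional one had no symbol at hand and is not in these medians (755 nt at 34.7-fold in shNC, 784 nt at 32.9-fold in shNAT10). MT-RNR2, the large mitochondrial ribosomal RNA, held the longest peak of both lists, 1559 nt in shNC (MT:1671-3229, 17.8-fold) and 1409 nt in shNAT10 (MT:1821-3229, 21.1-fold). MT-RNR1, the small one, had the same 597 nt in both, at 20.2-fold and 12.2-fold, and MT-CO1, a cytochrome c oxidase subunit, the same 623 nt at 10.2-fold and 12.2-fold. MT-ATP6, an ATP synthase subunit, had a single peak of 681 nt in shNC and 2 peaks of its own in shNAT10, of 297 nt and 326 nt. Mitochondrial transcripts abut each other on a genome without introns, and a block there need not be an exon of 1 gene.

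Histone genes gave 6 members in shNC (1.57%) and 2 in shNAT10 (0.631%), against 0.138% and 0.239% of the short peaks. Beside H1F0, the shNC members were H1-10 (503 nt), H2AFX (538 nt), H2AFZ (539 nt) and a pair on H3-3B (448 nt and 418 nt), linker and variant histone genes. H2AFZ (479 nt) and H3-3B (478 nt) were long in shNAT10 too, while the shNAT10 counterparts of H1-10 and H2AFX were short, at 355 nt and 329 nt. All 6 were shared with the shNAT10 list.

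Solute carriers, the largest family of membrane transporters, gave 17 members in shNC (4.46%) and 5 in shNAT10 (1.58%), against 1.57% and 1.91% of the short peaks. Of the 17, 16 were shared. SLC3A2 and SLC7A5, the chains of a heterodimeric amino acid transporter, were long in both lists, at 450 nt and 627 nt in shNC and 420 nt and 538 nt in shNAT10, as were SLC25A39 and SLC44A2. SLC29A2, a nucleoside transporter gene, had 539 nt against 181 nt, and SLC48A1, a haem transporter gene, 2 peaks of 538 nt against 270 nt and 388 nt. SLC38A1, a glutamine transporter gene, had 481 nt against separate peaks of 271 nt and 181 nt. SLC6A9, a glycine transporter gene (421 nt at 21.1-fold), had no shNAT10 peak. In the shNAT10 list the additional member was SLC25A6, the mitochondrial ADP/ATP carrier (475 nt at 16.3-fold). Its shNC counterpart was a peak of several blocks and 771 nt at 93.6-fold.

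Ribosomal protein genes ran the other way in number, with 7 members in shNC (1.84%) and 12 in shNAT10 (3.79%), against 2.42% and 2.20% of the short peaks, and all were shared. RPL18 (479 nt) and RPL23 (539 nt) had the same length in both lists, and RPL3 had 689 nt in shNC and 569 nt in shNAT10. RPL15 (540 nt), RPLP0 (479 nt), RPS2 (477 nt) and RPL38 (450 nt) were long only as listed in shNAT10, with best-matching shNC counterparts of 390 nt, 270 nt, 239 nt and 211 nt. The peaks of RPLP0 and RPL38 each met a further separate shNC peak, of 180 nt and 181 nt. Ribosomal protein genes have many processed copies in the genome, and how reads that fit several places were counted is not given in the sources used here.

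Zinc finger genes gave 2 members in each list (0.525% and 0.631%, against 1.82% and 1.89% of the short peaks), among them ZNF83, whose long peaks in the lists touched by 1 base. Keratins gave 2 in each (0.525% and 0.631%, against 0.193% and 0.266% of the short peaks), led by KRT13, a keratin of stratified squamous epithelium, with the same 536 nt in both lists at 168-fold and 78.7-fold. KRT19 was long only in the shNC list (450 nt against 270 nt). Of the genes of the AP-1 transcription factor and the immediate early genes, taken as 1 list, IER2 (448 nt and 567 nt) and JUND (473 nt in both) had a member in each peak list. Their shares were 0.525% and 0.631%, against 0.193% and 0.159% of the short peaks. Long noncoding RNAs gave 8 of the 381 named members in shNC and 7 of the 317 in shNAT10, against 105 of 3629 and 131 of 3765 named short peaks. The long ones in shNC included GAS5, the host of small nucleolar RNAs (566 nt at 109-fold), and UCA1 (479 nt). Most of these noncoding members overlapped an opposite-strand peak of the same list, against 15.7% and 14.4% of all members. The exceptions were GAS5 and AC016876.2 in shNC, and AC016876.2 and AL022311.1 in shNAT10. For the rest, UCA1 among them, which strand gave the reads is uncertain. These family shares are counts of few peaks in 1 list per condition and were not tested.

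Long peaks were spread over many genes. The members lay on 424 genes in shNC and 354 in shNAT10, of which 177 were in both (41.7% and 50%). No gene had 3 or more, and 10 and 7 genes had 2. In shNC the 2 entries of S1PR5, of LDOC1 and of an unnamed gene covered nearly the same bases, so each is 1 place listed again. SQSTM1, the autophagy receptor p62, had 2 in each list (689 nt and 419 nt in shNC, 539 nt and 449 nt in shNAT10), and SDC1, syndecan-1, had 2 in shNC (510 nt and 540 nt). Chromosome 19 held 63 shNC members (14.5%) and 49 shNAT10 members (13.6%), against 8.53% and 9.18% of the short peaks, differences of 5.99 points (2.86 to 9.70) and 4.396 points (1.12 to 8.397).

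A part of the members was listed on both strands. In shNC 68 members (15.7%) and in shNAT10 52 (14.4%) overlapped a peak of the same list on the opposite strand, against 9.42% and 9.11% of the short peaks, a difference of 6.25 points (3.01 to 10.1) and 5.29 points (1.93 to 9.37). In 24 shNC and 21 shNAT10 cases, counted from the long peak, the partner was a single-exon peak within 30 nt of its length, and in 22 and 16 of these the fold enrichments were within 10% of each other. FTH1, ferritin heavy chain, had 717 nt on the minus strand in shNC at 43.3-fold, and an unnamed gene on the plus strand had 720 nt at 42.7-fold over the same bases. TUBA1B, an alpha-tubulin gene, and AC011603.2 had 775 nt and 761 nt in shNAT10, both at 31.7-fold. PDIA6, a protein disulfide isomerase gene, and ATP6V1C2 had 540 nt and 539 nt in shNC at 38.8-fold and 42.3-fold. Whether the counting used the strand is not given in the sources used here, and without it the reads of such a pair cannot be told apart. With the strand ignored, the members covered 412 separate intervals in shNC and 341 in shNAT10. Without the peaks that had an opposite-strand partner, 329 of the remaining 366 shNC members (89.9%) and 278 of the remaining 309 shNAT10 members were shared.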

How the data were processed

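acRIP-seq was done on FaDu cells with shNC or shNAT10, 1 IP and 1 input library each, on total RNA per the labels and on mRNA by the wording of the study's results. Tables were assigned to conditions by a prefix they share with the library labels. The submitters' processing notes name cutadapt 2.5, HISAT2 2.1.0, HOMER 4.10.4 and featureCounts 1.6.3, and the build GRCh38, to which the deposited positions fit. The peak caller and its thresholds are not given in the sources used here. Each deposited peak list holds positions, exonic blocks, the authors' fold enrichment (a ratio, IP to input, on a linear scale), a p-value with its log10, and log10 FDR. The third deposited table also holds the authors' comparison of conditions (log2 fold change, p and FDR), which was not used; its symbols, region classes and motif sites were. Of the listed motif positions that reference windows cover, 20 of 23 on the plus strand and 20 of 21 on the minus strand read as the motif.

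Overlap needed 1 bp of exon on the same chromosome and strand. Exonic length is the sum of blocks. Symbols came from the file (265 shNC and 232 shNAT10 members) or from the only same-strand RefSeq gene holding the peak (116 and 85), and where both existed 96.8% and 95.7% of members had equal names. Shares have 95% Wilson and differences 95% Newcombe intervals. The overlap and intervals were tested on simulated data. Python 3.11.15, numpy 2.4.6, pandas 2.3.3 and matplotlib 3.10.9 were used. Named genes were the 10 longest and 5 most enriched members of each list, those beside the limit, the pairs with the 3 largest length differences each way, and NAT10, GLMP, UBE2V1 and COPS4, none of which had a member. Some genes that this rule names are not reported here. Further examples came from the gene lists and from peaks without a counterpart, split peaks and opposite-strand pairs, picked after their values were seen. Members and lists were chosen with earlier results of these data known.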

Additional observations from a re-analysis of the deposited data

How the results depend on the processing

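No paired analysis was possible because the peak lists carry no replicate numbers, with a single list for each line. The 8 results (the long share of each list, the share overlapping any peak and a long peak of the other list, and long minus short) were recomputed under 14 alternatives, 3 of them chosen after seeing the data. Of 88 values, 52 moved by less than the interval of the result and 36 by more. No long-minus-short value changed sign, and a share cannot change sign. A fold enrichment of at least 4, overlapping peaks counted once, no mitochondrial peaks and no peaks with an opposite-strand partner moved none beyond it. From 300 nt, the long shares became 15.8% (shNC) and 14.4% (shNAT10), sharing with any peak 84.7% and 84.2%, and sharing of shNC peaks with long peaks 49.4%. From 500 nt, the shares were 3.25% and 2.57%, sharing 94.7% and 96.4%, and long minus short in shNAT10 49.6 points. With peaks of several blocks included, the shares were 11.8% and 10.4%, sharing of shNC peaks 93.8%, and sharing with long peaks 51.6% and 57.9%. At an FDR of at most 1e-10, the shares were 13.96% and 11.9%, sharing 83.7% and 82.997%, and long minus short 30.02 and 25.6 points. With 50% of both peaks required, sharing was 75.6% and 76.2%, and long minus short 41.4 points in shNC. With midpoints, sharing was 81.3% and 79.8%, and long minus short 42.7 and 39.97 points. By gene identifier in place of position, long minus short was 28.2 and 27.4 points. The mean over p-value quartiles that hold long peaks was 8.14 and 31.3 points, where the third rests on 4 and 3 long peaks. Over the first and second quartiles alone it was 16.2 and 13.5 points, and weighted by long peaks 13.4 and 11.4. The cause of the other moves was not tested. Depth is unknown, and no setting stands in for replicate libraries.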
